A study of Homo sapiens with 3 samples.

Results

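The regions described here are H3K27ac regions of LNCaP cells that shared no base with any H3K4me1 region but lay at most 1000 bp from one, measured edge to edge. Members were chosen by their deposited positions alone, on chromosomes 1 to 22, and 2854 of the 69160 H3K27ac regions there met the rule. They made up 4.13% of the H3K27ac regions (exact 95% interval 3.98% to 4.28%) and 25.2% (24.4% to 26.0%) of the 11310 that overlapped no H3K4me1. LNCaP is a human prostate cancer line established from a lymph node metastasis and responsive to androgen. Each mark was profiled by ChIP-seq, sequencing of DNA recovered with an antibody from crosslinked chromatin, in 1 library of LNCaP cells grown as their supplier advises, with no treatment named in the labels. The input library was not analysed here, nor were PC3 cancer cells and normal prostate epithelium, which the series design also names. All coordinates are hg19, counted from 1.

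H3K27ac is acetylation of a lysine of histone H3, placed mainly by the acetyltransferases EP300 and CREBBP, and is found at active enhancers and promoters. H3K4me1 is monomethylation placed at enhancers mainly by KMT2C and KMT2D, and it marks enhancers whether they are active or only primed. At active promoters the same lysine carries trimethylation next to the start site, and monomethylation lies further out on the shoulders. The lists hold neither that trimethylation nor reads, so promoters and enhancers were not told apart among the members. No gene annotation of hg19 was used, so regions are named by position, and the cell line was not checked against marker genes.

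Without replicates, no test between conditions was possible. Intervals are exact binomial 95% intervals over regions, or order-statistic intervals for medians, and they cover counting error only. Neighbouring regions are not independent, so these intervals are too narrow. The lists give no read counts, and the depth is unknown. Where a list has no region, the mark may still be present. Distance and overlap chose the members, so the classes by distance given beside them are descriptions.

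Most members had H3K4me1 on 1 side only. The nearest H3K4me1 lay within 1000 bp on both sides of 319 members (11.2%, interval 10.0% to 12.4%) and on 1 side of 2535 (88.8%). Among the latter, 1286 had it on the side of lower coordinates and 1249 on the side of higher coordinates, a share of 50.7% (48.8% to 52.7%) for the former. Neither direction along the chromosome was therefore preferred beyond counting error. On the unflanked side, the nearest H3K4me1 region was a median of 8200 bp away (quartiles 3300 and 20025 bp). It lay over 1000 to 2000 bp away in 344 members flanked on 1 side (13.6%) and over 10000 bp away in 1114 (43.9%, 42.0% to 45.9%). In between, it lay over 2000 to 5000 bp away in 559 (22.1%) and over 5000 to 10000 bp away in 518 (20.4%). These classes differ in width and the one over 10000 bp is open-ended, so their shares do not show which distances were most frequent. The 344 just past the limit of 1000 bp outnumbered the 319 flanked on both sides, so the split depends on the limit.

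Distances were skewed towards contact. The median distance to the nearest H3K4me1 region was 350 bp (quartiles 150 and 650 bp), 1222 members (42.8%) lay within 250 bp and 1900 (66.6%) within 500 bp. Positions fall on a grid of 50 bp, and the most frequent single distance was 0 bp, where the regions abut without sharing a base. That distance was held by 243 members, followed by 231 at 50 bp, 223 at 100 bp, 131 at 500 bp and 85 at 1000 bp. The fall continued past both limits of the rule without a visible break. Just outside, 69 H3K27ac regions lay at 1.05 kb, with a median width of 1000 bp against 900 bp for the 85 members at 1000 bp. At the other limit, 307 regions overlapped H3K4me1 by only 50 bp and 343 by 100 bp, and each of these sets had a median width of 900 bp against 850 bp for the 243 abutting members. Of the abutting members 15.2% had scores of 0.009 or less, against 17.6% of those overlapping by 50 bp, with intervals of 10.95% to 20.4% and 13.5% to 22.3%.

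**Figure D1:**
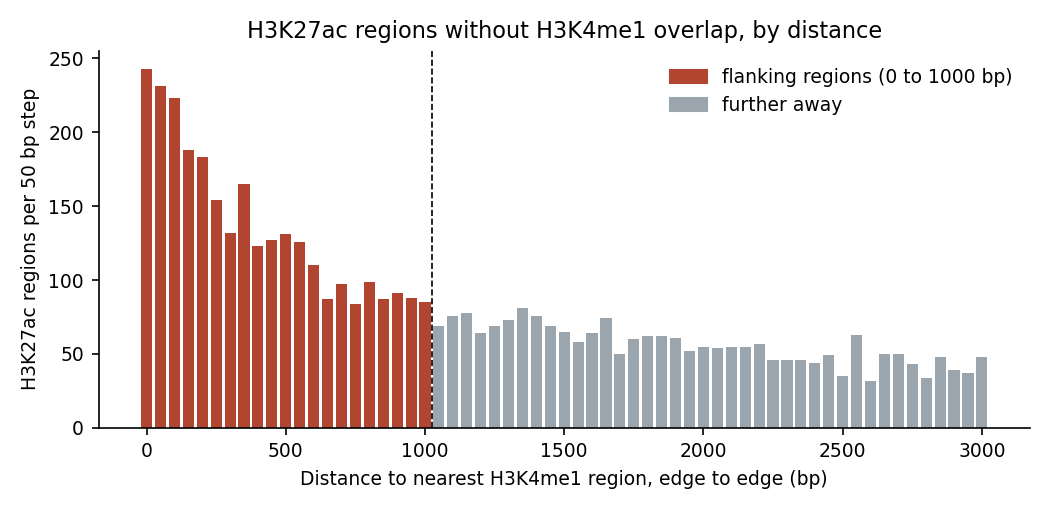
H3K27ac regions on chromosomes 1 to 22 without H3K4me1 overlap, counted at each 50 bp step of distance (bp, horizontal axis) to the nearest H3K4me1 region; each bar is a number of regions. Red bars are the 2854 members, from 243 at 0 bp to 85 at 1000 bp, and grey bars beyond the dashed line are regions further away, starting with 69 at 1.05 kb.

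Members flanked on both sides sat in breaks of H3K4me1 whose length the rule limits to the member's width plus both gaps of at most 1000 bp. The break, from the end of one H3K4me1 region to the start of the next, had a median length of 1700 bp (quartiles 1325 and 2075 bp). The member alone filled a median of 51.5% of it (41.1% and 63.6%), and other H3K27ac reaching into the break was not counted. The shorter of the 2 gaps was a median of 200 bp, the longer 600 bp, and they differed by a median of 300 bp (150 and 500 bp). Left and right gaps had the same median, 400 bp. In 134 members (42.0%) both gaps were at most 500 bp. Contact on both sides was seen in 2 members and contact on 1 side in 46. The narrower flanking H3K4me1 region had a median width of 800 bp and the wider one 1400 bp. Each of the 319 breaks held a single member.

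Breaks of this length seldom held a member, that is, an H3K27ac region that overlapped neither end, abutting ones included. Neighbouring H3K4me1 regions on chromosomes 1 to 22 were separated by 197678 intervals, of which 71608 were 2000 bp or shorter, and 228 of those held a member. In intervals of 1.55 to 2 kb, 106 of 10066 did (1.05%, interval 0.863% to 1.27%), and in those of 1.05 to 1.5 kb, 95 of 12661 (0.750%, 0.607% to 0.916%). Most such intervals held no H3K27ac at all, 76.0% of them at 1.05 to 1.5 kb and 79.8% at 1.55 to 2 kb. Where H3K27ac was present, it usually reached over an end. Of the 3039 intervals of 1.05 to 1.5 kb with H3K27ac, 1083 were bridged by 1 H3K27ac region from end to end (35.6%, 33.9% to 37.4%), 1743 had one reaching over a single end, and 83 (2.73%, 2.18% to 3.37%) held only enclosed regions, which reached over neither end but could abut one. At 2.05 to 3 kb the bridged share was 9.35% and the share with only enclosed regions 6.92%. The narrowest H3K27ac region is 550 bp, so no interval under that length can enclose one. A bridging region must be wider than the interval and an enclosed one no wider, so interval length itself bears on both shares. The median width of all H3K27ac regions on chromosomes 1 to 22 was 1600 bp.

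**Figure D2:**
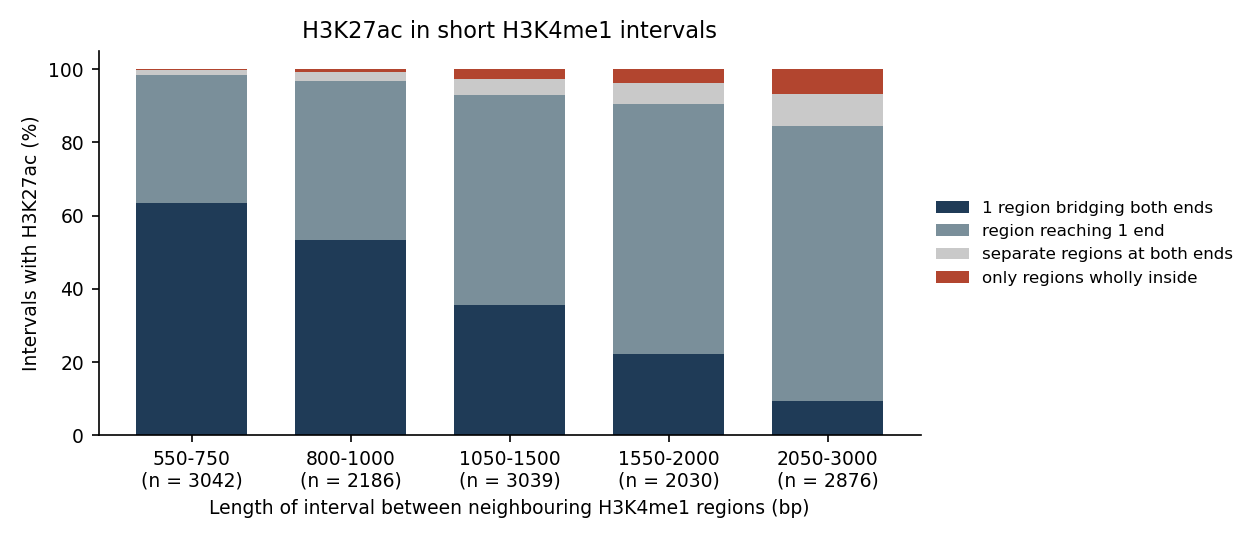
Intervals between neighbouring H3K4me1 regions that held H3K27ac, by interval length (bp, horizontal axis), split by how the H3K27ac regions lay; the vertical axis is the percent of those intervals and n their number. Bridging falls from 63.5% at 0.55 to 0.75 kb to 9.35% at 2.05 to 3 kb, and the red share with only enclosed regions rises from 0.164% to 6.92%. Interval length itself bears on both shares.

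Members were narrow. Their median width was 900 bp (quartiles 650 and 1300 bp, interval of the median 900 to 950 bp), close to the narrowest width in the list, and 587 of them (20.6%, 19.1% to 22.1%) were 550 or 600 bp wide. Regions overlapping H3K4me1 had a median of 1750 bp, and 4.68% of them were 550 or 600 bp wide. Members were also somewhat narrower than H3K27ac regions further from H3K4me1, whose medians were 1 kb for the 5484 regions over 1 kb to 10 kb away and 1.05 kb for the 2972 regions beyond that. A width of 2000 bp or more was reached by 198 members (6.94%) and 42.1% of the overlapping regions, and 8 members were 4000 bp or wider. Members flanked on both sides were the narrowest, at a median width of 800 bp (interval 750 to 850 bp, quartiles 0.6 and 1.05 kb) against 950 bp (interval 900 to 950 bp) for those flanked on 1 side. A region's width also bears on whether it meets H3K4me1, so the widths of these sets are not independent of the rule.

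**Figure D3:**
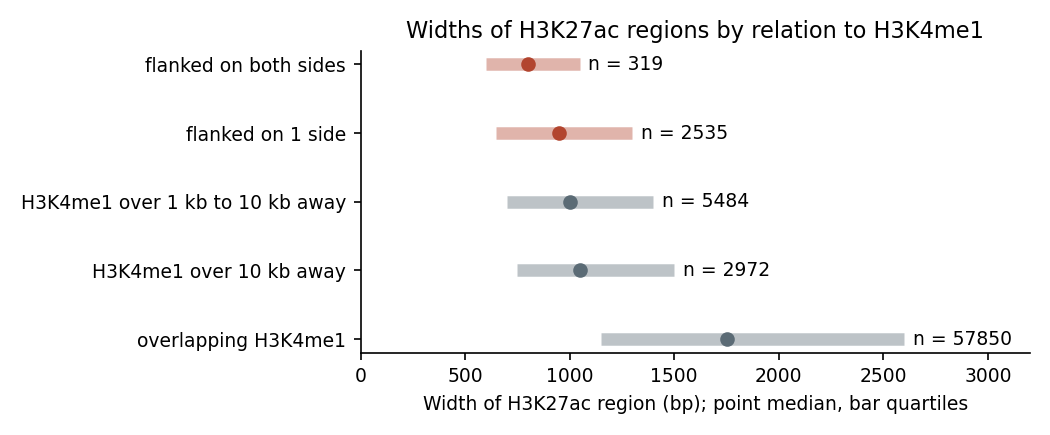
Width of H3K27ac regions (bp, horizontal axis) by their relation to H3K4me1; points are medians, bars run from the lower to the upper quartile, and n is the number of regions. The 319 members flanked on both sides have the lowest median, 800 bp, and the 57850 regions overlapping H3K4me1 the highest, 1750 bp.

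The share of members fell steadily with width among all H3K27ac regions, and less so among those free of H3K4me1. Among regions of 550 to 700 bp, 927 of 7471 were members (12.4%, 11.7% to 13.2%), against 740 of 15698 at 1000 to 1450 bp (4.71%) and 39 of 11203 at 3000 bp or more (0.348%). Counted only over regions without H3K4me1 overlap, the corresponding shares were 30.4% (28.8% to 32.1%), 22.8% (21.3% to 24.3%) and 20.6% (15.1% to 27.1%). Flanking on both sides was found in 15.2% of members of 550 to 700 bp (12.96% to 17.7%) and 6.51% of those of 1500 to 1950 bp (4.12% to 9.69%). The distance to the nearest H3K4me1 region varied little with member width, with medians of 350 bp at 550 to 700 bp and 400 bp at 1500 to 1950 bp.

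Members carried high values of the authors' score, an unnamed number deposited with each region. For H3K27ac it ranges over 12 values, the lowest 0.001 and the highest 0.048. It is lower in wider regions, and low values were read as the more stringent. The most frequent score among members was 0.032, held by 553 (19.4%), followed by 0.009 with 438 and 0.024 with 425. Scores of 0.009 or less were held by 581 members (20.4%, 18.9% to 21.9%), against 24.6% of regions over 1000 bp to 10 kb from H3K4me1, 28.7% of those beyond and 65.6% of those overlapping it. The lowest score, 0.001, was held by 34 members (1.19%). Members flanked on both sides had scores of 0.009 or less in 41 of 319 (12.9%, 9.38% to 17.0%), against 21.3% (19.7% to 22.9%) of those flanked on 1 side.

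Within the width class of 1000 to 1450 bp, score differences between members and the sets further from H3K4me1 were within counting error. Overlapping regions had lower scores there. Classes match width only coarsely, and the share of low scores rose steeply from class to class. How far width differences inside a class bear on these shares was not tested. Among regions of 1000 to 1450 bp, scores of 0.009 or less were held by 20.3% of members (17.4% to 23.4%), 21.3% of regions over 1000 bp to 10 kb away (19.3% to 23.4%), 23.2% of those beyond (20.5% to 26.0%) and 33.7% of overlapping regions (32.9% to 34.6%). At 1500 to 1950 bp the shares were 71.9% of members (66.8% to 76.6%) and 84.4% of overlapping regions (83.7% to 85.1%). Within 1000 to 1450 bp, members flanked on both sides had 16.4% (8.79% to 26.95%) and those flanked on 1 side 20.7% (17.7% to 24.0%), so the difference between them was within counting error there. In the narrowest and widest classes members and overlapping regions lay closer together. At 550 to 700 bp, which held 927 members, no region of any set had a score of 0.009 or less, and scores of 0.024 or more were held by 89.4% of members (87.3% to 91.3%) and 87.4% of overlapping regions (86.4% to 88.3%). At 750 to 950 bp, scores of 0.024 or more were held by 34.1% of members (30.5% to 37.9%) and 29.8% of overlapping regions (28.5% to 31.0%), with intervals that meet. At 3000 bp or more, all 39 members and 99.7% of overlapping regions had scores of 0.009 or less.

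**Figure D4:**
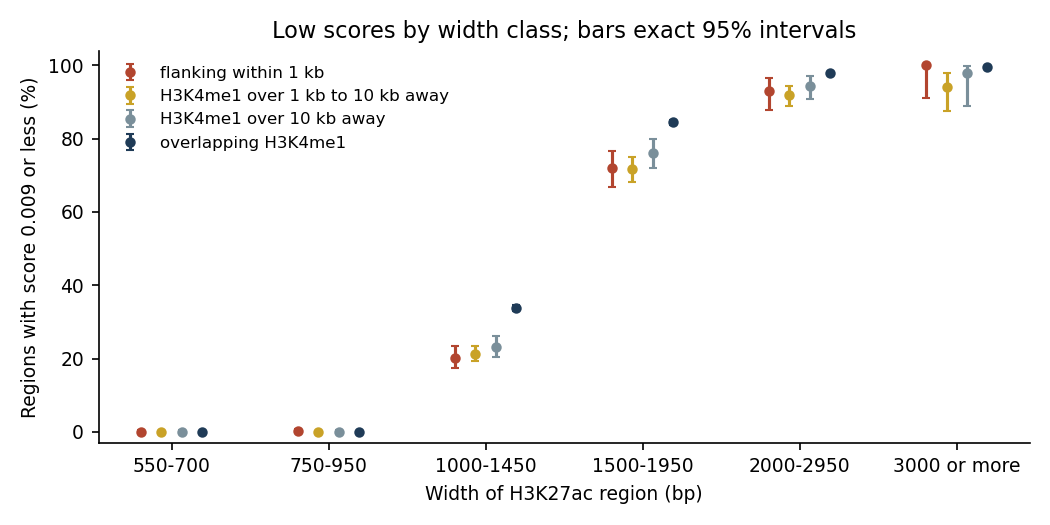
Percent of H3K27ac regions with an authors' score of 0.009 or less (vertical axis) in classes of region width (bp, horizontal axis), for members and 3 other sets; points are shares and bars exact 95% intervals over regions. In the class of 1000 to 1450 bp, members stand at 20.3% and overlapping regions at 33.7%.

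The H3K4me1 regions beside the members were ordinary in size for that list. The 2854 members had 3125 different flanking H3K4me1 regions, of which 3078 served 1 member, 46 served 2 and 1 served more. Their median width was 1 kb (quartiles 0.75 and 1.3 kb) against 1.05 kb (0.75 and 1.65 kb) for all 197700 H3K4me1 regions on the same chromosomes. H3K4me1 scores of 0.003 or less, the most stringent, were held by 20.99% of flanking regions (19.6% to 22.5%) and 27.9% of all. Scores of 0.081 or more, the least stringent, were held by 24.6% (23.1% to 26.2%) and 23.9%. Flanking regions of members flanked on both sides had a median of 1.05 kb, and those of members flanked on 1 side 0.95 kb. In the 3173 pairs of a member and its flanking region, the H3K4me1 region was the wider in 1662 and the member in 1353.

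Flanking H3K4me1 regions in contact with other H3K27ac were wider than the rest, a split that the whole H3K4me1 list shows too. Of the 3125, 1012 (32.4%, 30.7% to 34.1%) overlapped an H3K27ac region other than the member, close to the 34.3% of all H3K4me1 regions that overlapped H3K27ac. Those in contact had a median width of 1500 bp and scores of 0.003 or less in 48.8%, and the 2113 others 850 bp and 7.67%. In the whole list, H3K4me1 regions overlapping H3K27ac had a median of 1700 bp and 57.8%, and those without overlap 900 bp and 12.3%. At the level of members, 978 (34.3%, 32.5% to 36.0%) had a flanking region that overlapped other H3K27ac, which could lie beyond the flanking region or reach into the gap before it. The share of flanking regions in contact was higher at longer gaps, 23.2% (20.7% to 25.8%) at 0 to 200 bp and 42.4% (38.6% to 46.4%) at 750 to 1000 bp. A longer gap leaves more room for other H3K27ac before the flanking region, and its part in this rise was not tested. Of the 319 members flanked on both sides, 49 had both flanking regions in contact with other H3K27ac.

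Members more often had another H3K27ac region within 1000 bp than the other sets did. The rule bears on this, since the sets further away have no H3K4me1 within 1000 bp and most H3K27ac regions overlap H3K4me1. Within 12500 bp the shares were closer, at 74.7% of members and 70.5% of regions overlapping H3K4me1. They were 72.9% of regions over 1000 bp to 10 kb away and 26.7% of those beyond. Another H3K27ac region lay within 1000 bp of 879 members (30.8%, 29.1% to 32.5%), against 12.02% of regions over 1000 bp to 10 kb from H3K4me1 and 17.9% (17.5% to 18.2%) of regions overlapping it. The share was 44.5% (38.98% to 50.2%) in members flanked on both sides. The difference was also seen at matched width. At 550 to 700 bp it was 35.1% in members (32.0% to 38.2%), 22.5% in overlapping regions and 14.0% in regions over 1000 bp to 10 kb away, and at 1500 to 1950 bp it was 23.1% (18.7% to 27.9%), 13.9% and 9.43%. The nearest H3K27ac neighbour itself overlapped H3K4me1 for 2296 members (80.4%), with a median neighbour width of 1800 bp, and was another member for 182. Runs of members at most 12500 bp apart with no other H3K27ac region between them were short, with 71 of 2 members and 6 of 3. The 2694 members outside such runs could still have another member within 12500 bp, past a different H3K27ac region.

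In members flanked on 1 side, another H3K27ac region was more often near on the side of the H3K4me1 than on the other. The rule bears on this, since it leaves no H3K4me1 in the first 1000 bp of the other side, and 57850 of the 69160 H3K27ac regions overlap H3K4me1. Another H3K27ac region was found within 1000 bp on the flanked side in 629 of 2535 (24.8%, 23.1% to 26.5%) and on the other side in 182 (7.18%, 6.20% to 8.25%). Within 12500 bp the counts were 1528 (60.3%) and 1126 (44.4%). The median distance to the next H3K27ac region was 6700 bp on the flanked side and 15300 bp on the other. At 1500 bp from the member's edge, 25.4% of positions on the flanked side lay in another H3K27ac region, against 7.02% on the other side. By 10000 bp the sides had drawn together, at 14.0% and 12.7%. Read on both sides together, the shares at 1500 bp were 17.6% for all members and 10.8% for overlapping regions. H3K4me1 itself covered 23.0% of positions 3000 bp out on the flanked side and 13.1% on the other side, and at 10000 bp 17.5% and 15.4%. On both sides together it covered 19.8% for all members and 24.3% for overlapping regions at 3000 bp, and 17.7% and 21.6% at 10000 bp. The surroundings of members flanked on both sides were richer in both marks, with 31.8% in H3K4me1 and 24.5% in other H3K27ac at 5000 bp. The first 1000 bp of H3K4me1 is set by the rule and shows nothing further. No other H3K27ac lay within 12500 bp of 722 members (25.3%), against 31.0% of all H3K27ac regions on chromosomes 1 to 22. The share was 29.5% in regions overlapping H3K4me1, 27.1% in those over 1000 bp to 10 kb away and 73.3% in those beyond.

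**Figure D5:**
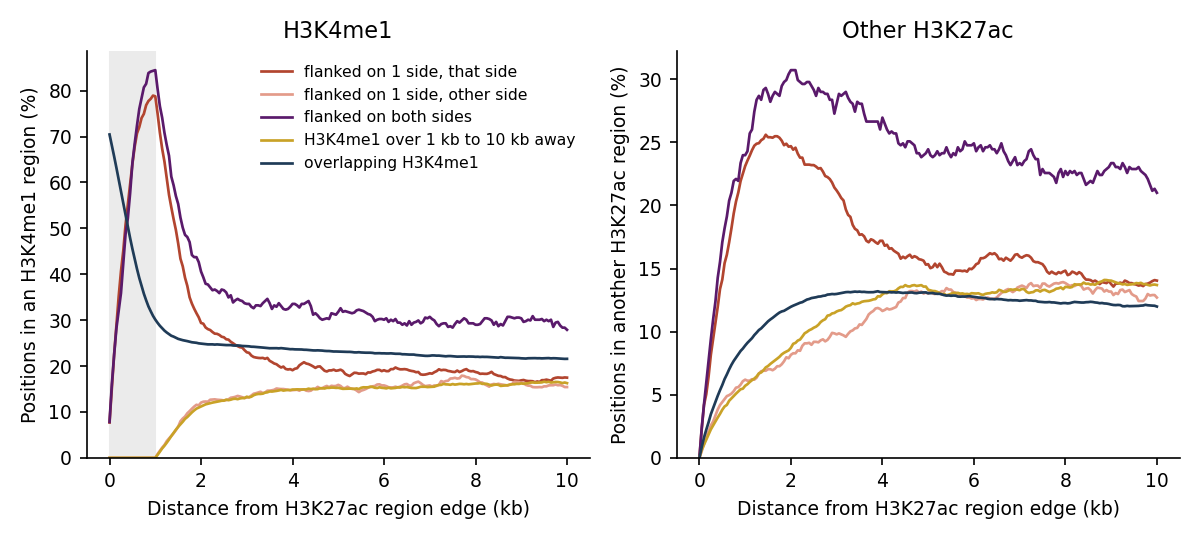
Percent of positions lying in an H3K4me1 region (left) and in another H3K27ac region (right) against distance from the edge of an H3K27ac region (kb), read every 50 bp, for members by side and for 2 other sets. The grey band marks the first 1 kb, where the rule fixes H3K4me1; at 1500 bp other H3K27ac stands at 25.4% on the flanked side and 7.02% on the other.

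The widest members had low scores and lay beside much narrower H3K4me1 regions. The choice by width bears on both traits. All 39 members of 3000 bp or more had scores of 0.009 or less. The flanking regions of all members had a median width of 1000 bp. The 5 widest members flanked on 1 side all had the lowest score, 0.001, and were also the 5 members first in order of score and width. The first, on chromosome 17 from 74728401 to 74735300, was 6900 bp wide and lay 800 bp from an H3K4me1 region of 1.05 kb with a score of 0.034, with 21200 bp to the next on the other side. The second, on chromosome 14 from 38032801 to 38039400, spanned 6600 bp, with H3K4me1 550 bp away on one side and 1300 bp away on the other, just past the limit. The third, on chromosome 11 from 23605101 to 23610850, spanned 5750 bp and lay 900 bp from an H3K4me1 region of 600 bp. The others lay on chromosome 15 from 99788051 to 99792700 (4650 bp, 400 bp from H3K4me1) and chromosome 12 from 14536451 to 14540750 (4300 bp, 150 bp from H3K4me1). The flanking regions of these 5 were 600 to 1150 bp wide and none had a score under 0.008, so each member was several times wider than the H3K4me1 beside it.

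Among members flanked on both sides, the widest lay on chromosome 1 from 119661651 to 119665900, spanning 4250 bp with a score of 0.007, with gaps of 950 and 650 bp to H3K4me1 regions of 2200 and 950 bp. The next lay on chromosome 16 from 52528751 to 52532350 (3600 bp, gaps of 50 and 950 bp) and chromosome 11 from 103030201 to 103033500 (3300 bp, gaps of 700 and 0 bp). They were followed by chromosome 8 from 53950651 to 53953850 (3200 bp, gaps of 900 and 1000 bp) and chromosome 7 from 20146201 to 20149000 (2800 bp, gaps of 300 and 850 bp). Of these 5, 3, on chromosomes 16, 8 and 7, had the lowest score, 0.001, which no other member flanked on both sides had. The member of chromosome 7 stood between an H3K4me1 region of 600 bp with a score of 0.093, the highest in that list, and one of 650 bp with 0.081.

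The tightest fit was on chromosome 5 from 111125151 to 111126900, where H3K27ac filled a break of H3K4me1 exactly, 1750 bp wide between H3K4me1 regions of 850 and 900 bp. The other exact fit was on chromosome 9 from 98429651 to 98431000, 1350 bp between H3K4me1 regions of 3250 and 2000 bp. A summed gap of 50 bp was found around the members on chromosome 10 from 79093151 to 79094150, chromosome 11 from 44163101 to 44163850 and chromosome 1 from 66468251 to 66468850, which were 1000, 750 and 600 bp wide. The member of chromosome 11 was also 50 bp from another H3K27ac region on either side, so that H3K27ac was nearly continuous there while H3K4me1 was broken by the member. The scores of these 5 members ran from 0.009 to 0.024.

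Among members flanked on both sides, the 3 with the widest summed flanking regions were 550 to 850 bp wide and had scores above the list median, 0.009. Neither trait sets them apart. Members flanked on both sides had a median width of 800 bp, and only 12.9% had scores of 0.009 or less. The member on chromosome 21 from 11117251 to 11118100, 850 bp wide with a score of 0.024, lay between H3K4me1 regions of 10750 and 14950 bp. The member on chromosome 1 from 224377051 to 224377600, 550 bp wide with the highest score of the list, 0.048, lay 800 bp from an H3K4me1 region of 10550 bp and 300 bp from one of 1750 bp. The member on chromosome 20 from 30273201 to 30273900, 700 bp wide with a score of 0.021, abutted an H3K4me1 region of 11300 bp. Each of the 4 H3K4me1 regions over 10 kb named here overlapped other H3K27ac.

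Members were found on every autosome, in unequal shares. Chromosome 4 had the highest share of its H3K27ac regions among the members, 202 of 3664 (5.51%, 4.80% to 6.30%), and chromosome 22 the lowest, 10 of 993 (1.01%, 0.484% to 1.84%), followed by chromosome 19 with 30 of 1739 (1.73%, 1.17% to 2.45%). Counted over H3K27ac regions without H3K4me1 overlap, the order changed. Chromosome 4 had 20.5% (18.0% to 23.1%), below the 25.2% of all chromosomes together, and chromosome 22 no longer stood apart, with 10 of 35 (28.6%, 14.6% to 46.3%), and the lowest share was 16.6% (12.95% to 20.7%) on chromosome 13. Copy number of LNCaP, which has an abnormal karyotype, was not corrected for, and its part in these shares was not tested. The 3 windows of 1 Mb with the most members were ranked by count, not by share of H3K27ac regions. They were on chromosome 4 from 41000001 to 42000000 with 14 of 78 H3K27ac regions, chromosome 21 from 11000001 to 12000000 with 13 of 43, and chromosome 3 from 120000001 to 121000000 with 13 of 100. Most of the 1483 windows with a member held only 1, which was the case for 767. The window of chromosome 21 held 7 members flanked on both sides. With it, 14 of 57 members of chromosome 21 were so flanked (24.6%, 14.1% to 37.8%), and without it 7 of 44 (15.9%, 6.64% to 30.1%).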

How the data were processed

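ChIP-seq region lists of H3K27ac and H3K4me1 from LNCaP cells were analysed, 1 library per mark. Per the submitters' processing notes, Bowtie 0.12.8 was used with the build hg19. Which program called the regions, at what threshold, and whether duplicates or the input were considered is not given in the sources used here. These settings decide where a region ends and so each gap. The deposited score is the authors' unnamed value per region and was used only to rank and filter within a list. Starts were read as 0-based and are printed counted from 1. All starts and ends lie on a grid of 50 bp, so a gap of 0 bp means abutting regions. Distances, overlaps and intervals were computed with Python 3.11.15, numpy 2.4.6, pandas 2.3.3 and scipy 1.17.1, and drawn with matplotlib 3.10.9. The distance routine was tested on 800 simulated regions and gave 0 differences from a direct search. Shares have Clopper-Pearson intervals. The members and lists were chosen with earlier results of these data known. Regions were named by fixed rules: the 5 widest members flanked on 1 side and on both sides, the 5 of lowest score (ties by width), the 5 with the smallest summed gap, the 3 with the widest summed flanking regions, the 3 windows of 1 Mb with the most members, and the chromosomes of highest and lowest member share. Width classes, gap classes and score limits of 0.009 and 0.081 were chosen after seeing the data, as were chromosome 19 and the member share of chromosome 21. The planned gene and sequence context was not run, because no hg19 genome or annotation was used here. Alternatives are given in the closing section.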

Additional observations from a re-analysis of the deposited data

How the results depend on the processing

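Of 70 alternative values (7 results under 10 settings), 43 stayed within the interval of the main value, or within 1.5 times for the number of members, and 27 moved. A distance limit of 500 bp gave 1900 members, 7.05% flanked on both sides, a median distance of 0.2 kb and 29.1% with a flanking region in contact with other H3K27ac. A limit of 2 kb gave 17.9% flanked on both sides, a median distance of 0.6 kb and 39.3% in contact. With H3K4me1 scores under 0.05, 2194 of the 2854 members remained, 660 no longer had H3K4me1 within 1 kb and 443 regions that had overlapped a weaker one joined them; 8.49% were flanked on both sides, the flanking median was 1.05 kb and 40.7% were in contact. With H3K4me1 scores at or below the list median, 1431 remained, 5.55% were flanked on both sides, the median width was 1 kb, the median distance 0.4 kb, 3.81% had scores of 0.003 or less, the flanking median was 1.35 kb and 53.2% were in contact. With H3K27ac scores at or below the list median, 581 remained, 7.06% were flanked on both sides, the median width was 1.75 kb, the median distance 0.4 kb, 11.2% had scores of 0.003 or less and 16.0% were in contact. Joining H3K27ac regions at most 500 bp apart removed 536 members as separate regions and gave 9.54% flanked on both sides and 21.99% in contact. Joining H3K4me1 likewise gave a flanking median of 1.05 kb and 37.7% in contact; it cannot remove a member, since none is under 550 bp. Allowing an overlap of 50 bp gave 3161 members and a median distance of 0.3 kb. The remaining settings, all chromosomes but the mitochondrial one (2958 members) and, added after seeing the data, without the window of chromosome 21 from 11 to 12 Mb (2841 members), moved no value. Over the settings the share flanked on both sides ran from 5.55% to 17.9%. The cause of these moves was not tested beyond what each setting removes. No paired analysis was possible because the labels give no second sample of either mark. Because depth is unknown, an unflanked side may still carry H3K4me1.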
